A study of Mus musculus with 18 samples.

Results

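Genes of the axon guidance families were followed in isolated mouse brain endothelial cells: semaphorins and their plexin receptors, ephrins and their Eph receptors, netrins and their Unc5 receptors, and Slits and their Robo receptors. Members were the genes whose symbol begins with Sema, Plxn, Epha, Ephb, Efna, Efnb, Robo, Unc5 or Ntn, together with Slit1, Slit2 and Slit3. Sema3g, Efnb2, Ephb4 and Unc5b were left out by that rule, and 10 reads summed over the 18 libraries were required. The rule found 68 genes of the 57010 in the count table, and 60 of them had enough reads to be tested. The 8 that were not tested are Epha6, Epha8, Epha10, Unc5d, Unc5cl, Ntn5, Ntng1 and Plxna4os2. Of the 68 members, 4 were matched by symbol but not assigned to any of these families: Unc50, Unc5cl and the antisense transcripts Plxna4os1 and Plxna4os2.

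The libraries come from whole preparations of brain endothelial cells of mice at postnatal day 57. Normoxia KO (n = 5) and Hypoxia KO (n = 5) mice were Slco1c1-iCreERT2; Pdcd10 fl/fl; Aldh1l1-EGFP/Rpl10a. Their controls, Normoxia Flox (n = 4) and Hypoxia Flox (n = 4), were Pdcd10 fl/fl; Aldh1l1-EGFP/Rpl10a littermates without the recombinase, and all groups carried the astrocyte reporter. Pdcd10 encodes CCM3, whose loss from endothelium causes cavernous malformations, and the Slco1c1 promoter confines the tamoxifen-dependent recombinase largely to brain endothelium. Each pup received 50 µg of 4-hydroxytamoxifen on postnatal day 1, although the series text also counts uninjected recombinase carriers among the controls, without linking them to libraries. Hypoxia was 7 days at 12% oxygen and normoxia was 21% oxygen.

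Semaphorins, ephrins, netrins and Slits are secreted or membrane-bound cues that steer growing axons by attraction or repulsion, and they act through receptors that rearrange the actin cytoskeleton via small GTPases. Blood vessels use the same families. Robo4 is a Robo receptor found mainly on endothelium, plexin-D1 receives class 3 semaphorins during vessel patterning, and ephrins and Eph receptors on neighbouring cells set boundaries between vessels. Neurons and glia of the adult brain also express many of these genes.

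The libraries held 17931197 to 31193333 counts. Values per library are given as CPM, counts scaled to the TMM-corrected library size, and levels of different genes are compared by the deposited RPKM, which account for gene length. Endothelial markers were abundant throughout (14 markers, 17951.7 to 27136.3 CPM in sum), and Cdh5 did not fall below 821.1 CPM in any library. Pdcd10, the targeted gene, stood at 16.3 to 20.1 CPM in Normoxia KO against 30.6 to 45.0 CPM in Normoxia Flox, and at 18.2 to 25.3 CPM in Hypoxia KO against 37.7 to 60.9 CPM in Hypoxia Flox. Normoxia KO 4 and Normoxia Flox 4 stood apart with 1744.0 and 3111.4 CPM over 15 neuron markers, against at most 124.8 CPM in the other 16 libraries. Their sums over 12 astrocyte markers were 1435.3 and 2483.9 CPM, against at most 283.6 CPM elsewhere. Y-linked transcripts and Xist were both present in Normoxia KO 4, Normoxia Flox 3 and Normoxia Flox 4. Y-linked reads were near absent in 4 of 5 Hypoxia KO libraries and present in all 4 Hypoxia Flox libraries, so sex and genotype are largely aligned in hypoxia. Sex was also uneven with oxygen. Summed Y-linked reads were 0.0 to 247.1 CPM in Normoxia Flox against 232.4 to 279.3 CPM in Hypoxia Flox. Their median was 19.5 CPM in Normoxia KO and 0.0 CPM in Hypoxia KO. Genotype calls that change without the neuron-marker libraries are given below with and without them.

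Among the 60 tested members, the same 7 genes passed the test in both genotype comparisons. How many of all 17531 tested genes passed in both was not counted, so these 7 have no background beside them. Robo4, Plxnb2, Ntn3, Epha3 and Sema3d were higher in KO, and Sema3c and Ntng2 were lower in KO. Robo4, Plxnb2, Ntn3 and Sema3c also kept their call in both comparisons in each alternative fit that was run. The promoters of these 4 genes are shown because their calls were kept throughout. Each is the 250 bases before the annotated start, from RefSeq on GRCm38.p6, read 5′ to 3′ on the gene's strand. Plxnb2 has 2 starts in that table, and the more upstream one is shown. Capitals mark CACCC (the core of KLF sites), ACGTG and GCGTG (both cores of hypoxia response elements) and CCGGAAGT (an ETS site), searched on both strands. KLF2 and KLF4 are known to rise in endothelium that lacks the CCM complex, and ETS factors drive many endothelial promoters.

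Robo4, chr9:37401722-37401971, plus strand: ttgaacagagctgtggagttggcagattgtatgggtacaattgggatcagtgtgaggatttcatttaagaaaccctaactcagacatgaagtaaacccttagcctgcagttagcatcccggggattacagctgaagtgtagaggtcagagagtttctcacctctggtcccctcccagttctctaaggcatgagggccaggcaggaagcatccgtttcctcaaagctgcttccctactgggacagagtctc
Plxnb2, chr15:89180789-89181038, minus strand: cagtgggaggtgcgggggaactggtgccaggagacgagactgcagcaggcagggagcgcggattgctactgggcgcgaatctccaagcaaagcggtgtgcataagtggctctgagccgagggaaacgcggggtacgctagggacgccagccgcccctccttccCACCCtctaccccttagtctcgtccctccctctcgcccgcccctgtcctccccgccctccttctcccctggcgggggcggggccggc
Ntn3, chr17:24209388-24209637, minus strand: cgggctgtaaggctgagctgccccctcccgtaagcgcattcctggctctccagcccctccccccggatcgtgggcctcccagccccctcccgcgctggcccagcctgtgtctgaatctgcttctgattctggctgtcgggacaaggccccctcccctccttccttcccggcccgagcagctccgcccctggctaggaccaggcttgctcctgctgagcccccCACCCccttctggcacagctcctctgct
Sema3c, chr5:17574566-17574815, plus strand: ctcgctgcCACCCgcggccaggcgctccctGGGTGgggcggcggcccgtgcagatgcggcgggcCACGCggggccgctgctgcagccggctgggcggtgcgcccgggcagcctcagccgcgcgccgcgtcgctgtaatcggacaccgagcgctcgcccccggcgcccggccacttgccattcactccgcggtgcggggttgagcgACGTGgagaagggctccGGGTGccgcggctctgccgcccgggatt

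The Robo4 window holds none of the 4 motifs, and its GC content is 49.6%. The Plxnb2 and Ntn3 windows hold 1 CACCC match each at a GC content of 69.2%. The Sema3c window, with a GC content of 78.4%, holds 3 CACCC matches, 1 ACGTG match and 1 GCGTG match. Of 32851 promoter windows of this length in the table, 52.0% hold CACCC, 16.6% hold ACGTG, 28.2% hold GCGTG and 2.9% hold CCGGAAGT. The table has a window for 57 of the 68 members, and CACCC was found in 55 of their 73 windows, ACGTG in 12, GCGTG in 25 and CCGGAAGT in 0.

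The abundance of these genes spans a wide range. Averaged over the libraries, 30 members reached 1 RPKM and 17 reached 10 RPKM. Sema7a, a semaphorin held in the membrane by a lipid anchor, was the most abundant at 396 RPKM, followed by Robo4 at 143 RPKM and Plxnd1 at 70.8 RPKM. Sema3c, a secreted semaphorin that acts through neuropilins and plexins, averaged 66.4 RPKM, and Epha2, a receptor tyrosine kinase, averaged 48.2 RPKM. Efna1, a preferred ligand of Epha2, stood at 26.3 RPKM. The remaining members above 10 RPKM lay between 10.9 and 23.8 RPKM and comprise the membrane semaphorins Sema4c, Sema6a, Sema6b and Sema6d, the plexin Plxna2, the receptor Epha4, the ephrins Efnb1 and Efnb3, the netrins Ntn1 and Ntn4, and Unc50. Among Robo receptors, Robo1, Robo2 and Robo3 averaged 0.29 to 0.65 RPKM, and the Slits averaged 0.38 to 0.79 RPKM.

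**Figure D1:**
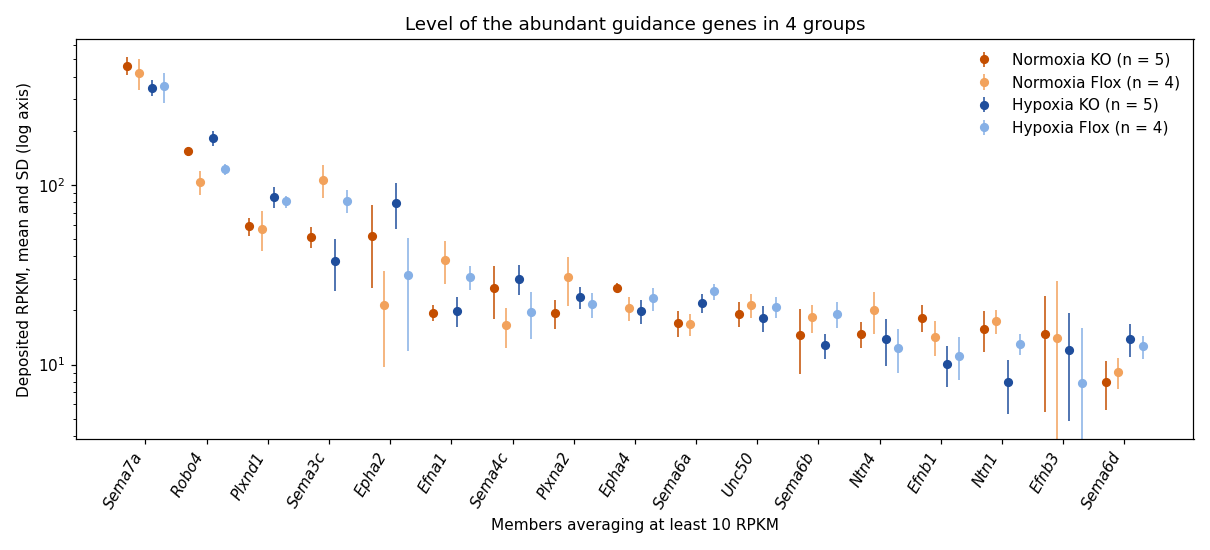
Deposited RPKM (log axis) of the 17 members that averaged at least 10 RPKM, in Normoxia KO, Normoxia Flox, Hypoxia KO and Hypoxia Flox. Points are group means and bars are the SD over 5 KO or 4 Flox libraries. Robo4 sits higher in both KO groups, Sema3c and Efna1 sit lower in both KO groups, and the bars of Epha2 and Efnb3 are wide, with those of Efnb3 in both Flox groups running past the lower edge.

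Sema7a averaged 461.0 ± 52.8 RPKM in Normoxia KO and 421.1 ± 82.5 RPKM in Normoxia Flox, and 347.0 ± 34.5 RPKM in Hypoxia KO and 352.5 ± 66.6 RPKM in Hypoxia Flox (SD, n = 5 for KO and n = 4 for Flox). These means lie within 1 SD of each other between genotypes at each oxygen level, and Sema7a did not pass the test in any comparison. Robo4 ranked second in all groups but Normoxia Flox, where its 103.5 ± 16 RPKM lay beside the 106.3 ± 22.3 RPKM of Sema3c, a difference within the spread. In Hypoxia KO, Plxnd1 at 85.7 ± 11.7 RPKM and Epha2 at 79.5 ± 23.1 RPKM likewise did not differ beyond their spread.

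KO was compared with Flox in normoxia to see which guidance genes go with the loss of endothelial Pdcd10 in room air. The edgeR quasi-likelihood test called 13 of the 60 tested members at a Benjamini-Hochberg adjusted p under 0.05, against 16.6% of all 17531 genes tested. In KO, 8 members were higher (9.54% of all genes) and 5 were lower (7.03% of all genes), and these counts are near that background. The members' median log2 fold change was -0.17, beside -0.02 over all genes. Libraries did not overlap for 7 members that were higher in KO (8.59% of all genes) and 3 that were lower (6.09%). Same-numbered normoxia libraries varied together in pairs 1 and 4, as some libraries with different numbers also did. With these numbers as a block 4 members were higher and 6 lower, while 1812 genes were called in all, against 2905 without the block.

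In hypoxia the same question was asked of animals kept at low oxygen. Here 11 of 60 members passed, against 22.3% of all genes. Among these, 8 were higher in Hypoxia KO (11.4% of all genes) and 3 were lower (11%). The members' median log2 fold change was 0.30, while that of all genes was 0.00. Libraries did not overlap for 9 members that were higher in Hypoxia KO (12.0% of all genes) and 5 that were lower (10.3%). The higher calls lie near the background and the lower calls below it, at 5.0% of the tested members.

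Without Normoxia KO 4 and Normoxia Flox 4, 59 members could be tested. Then 10 were higher (10.3% of all genes) and 7 lower (11.2%) in Normoxia KO. Leaving out Normoxia KO 4 alone keeps the neuron-marker library Normoxia Flox 4 in the Flox group, with no such library left in Normoxia KO. That fit gave 16 members lower in Normoxia KO and called 3645 genes in both directions together. The share of all genes lower in it was not counted. In Hypoxia KO, 11 were higher (15.3%) and 8 lower (16.3%) when the same 2 libraries were left out.

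Markers of mural cells differed between the genotypes as well. Smooth muscle markers summed to 375.3 to 422.7 CPM in Normoxia KO against 815.4 to 1442.5 CPM in Normoxia Flox, and to 351.2 to 559.1 CPM in Hypoxia KO against 732.1 to 1062.5 CPM in Hypoxia Flox. In both comparisons 9 of these 11 markers passed as lower in KO, and Acta2 and Myh11 were present in every library. Of 12 pericyte markers, 4 passed as higher in Normoxia KO (797.3 to 1447.6 CPM in sum, against 416.2 to 1388.9 CPM in Normoxia Flox) and 7 in Hypoxia KO (1334.5 to 2314.9 CPM, against 229.6 to 1145.7 CPM in Hypoxia Flox). Of 13 microglia and macrophage markers, 3 passed as higher in Hypoxia KO (17.8 to 103.9 CPM in sum, against 5.63 to 34.4 CPM in Hypoxia Flox) and 0 in Normoxia KO. Of 10 tested fibroblast markers, 3 passed as higher in Hypoxia KO, and 1 was higher and 1 lower in Normoxia KO. Fibroblast sums stood apart in Normoxia Flox 1 (1044.3 CPM) and Hypoxia Flox 3 (519.4 CPM). The part of all these cells in the guidance results was not tested. In such bulk libraries, fewer cells of a type and less RNA per cell cannot be told apart.

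**Figure D2:**
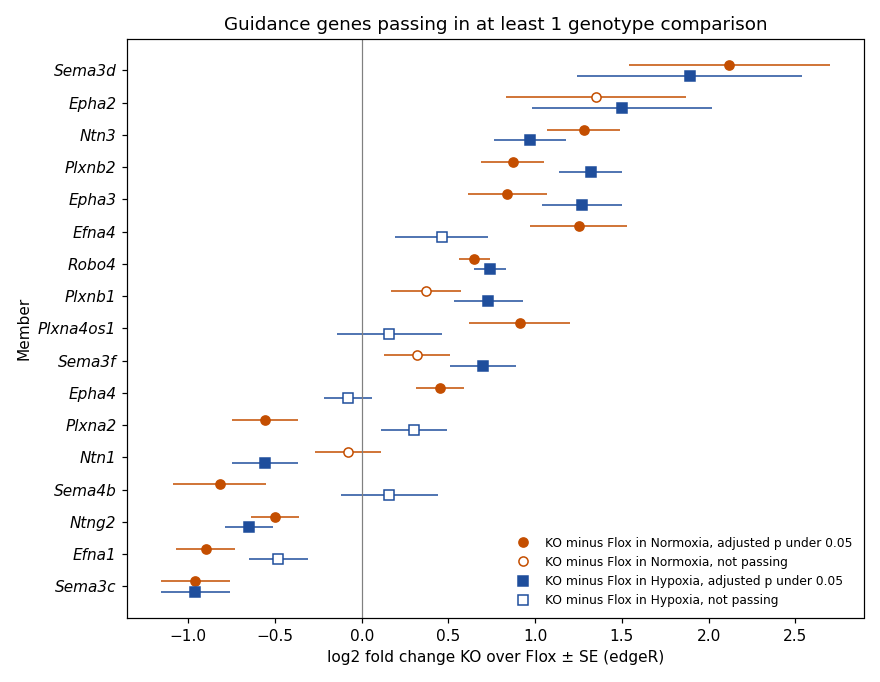
Log2 fold change of KO over Flox with its SE for the 17 members that passed in at least 1 genotype comparison, in normoxia (orange circles) and in hypoxia (blue squares). Filled symbols passed at an adjusted p under 0.05. Sema3d, Ntn3, Plxnb2, Epha3 and Robo4 are filled to the right of 0 at both oxygen levels, and Ntng2 and Sema3c to the left.

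Robo4 (ENSMUSG00000032125), the endothelial Robo receptor known for stabilizing vessels, was higher in KO at both oxygen levels. Its CPM was 817.5, 878.1, 865.4, 786.9 and 846.6 in the Normoxia KO libraries, against 542.0, 562.1, 598.8 and 435.1 in Normoxia Flox. In hypoxia it was 988.6, 997.8, 927.3, 1200.9 and 938.8 in Hypoxia KO, against 564.8, 593.2, 643.4 and 622.9 in Hypoxia Flox. The lowest KO library lay above the highest Flox library at both oxygen levels. The log2 fold change was 0.65 ± 0.09 in normoxia (SE, edgeR, adjusted p = 0.000147) and 0.74 ± 0.09 in hypoxia (adjusted p = 6.09e-05). Robo3 had 2.63 to 6.78 CPM in Normoxia KO and 1.26 to 5.34 CPM in Normoxia Flox, and 3.45 to 9.90 CPM in Hypoxia KO and 1.58 to 5.2 CPM in Hypoxia Flox, with overlapping libraries and no call. Robo1 and Robo2, the main neuronal Slit receptors, stood at or below 2.40 CPM outside the neuron-marker libraries.

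Slit ligands of the Robo receptors were scarce. Slit3 (ENSMUSG00000056427) stood at 1.02, 1.03, 11.6, 1.04 and 1.62 CPM in Normoxia KO, against 7.67, 8.30, 5.34 and 20.6 CPM in Normoxia Flox. In hypoxia the libraries did not overlap, at 1.78, 1.45, 1.14, 0.485 and 1.58 CPM in Hypoxia KO against 4.99, 5.70, 5.60 and 3.48 CPM in Hypoxia Flox. The single high KO value and the highest Flox value belong to the neuron-marker libraries. Over all libraries Slit3 did not pass, with log2 fold changes of -1.69 ± 0.64 in normoxia (adjusted p = 0.0873) and -1.95 ± 0.72 in hypoxia (adjusted p = 0.0636). Without those 2 libraries it fell by 2.60 ± 0.30 in normoxia (adjusted p = 2.28e-05) and by 1.96 ± 0.28 in hypoxia (adjusted p = 0.000112), on the log2 scale. Without Normoxia KO 4 alone the normoxia value was -3.15 (adjusted p = 8.28e-05) and the hypoxia value -1.95 (adjusted p = 0.00245), and without Normoxia Flox 4 alone the hypoxia value was -1.95 (adjusted p = 0.046). Slit3 also passed in the blocked normoxia fit, at -2.04 ± 0.44 (adjusted p = 0.0108), and over all libraries with DESeq2 (-1.73, adjusted p = 0.0393, in normoxia and -1.94, adjusted p = 0.0159, in hypoxia) and with limma-trend (-1.80, adjusted p = 0.0211, and -1.59, adjusted p = 0.0273). Slit2, a secreted ligand of Robo1 and Robo2, had 8.71 to 15.2 CPM in Normoxia KO and 6.26 to 22.1 CPM in Normoxia Flox, with a log2 fold change of 0.06 ± 0.29. Leaving out Normoxia Flox 4 alone, with the neuron-marker library Normoxia KO 4 kept, moved the Slit2 value to 0.61 (adjusted p = 0.0383). Omitting all 3 libraries that mix Xist with Y-linked reads moved it to 0.66 (adjusted p = 0.0381). Without both neuron-marker libraries Slit2 did not pass in normoxia.

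The plexins that passed as higher in KO were Plxnb2 and Plxnb1, receptors of class 4 semaphorins. Plxnb2 (ENSMUSG00000036606) had 68.3, 70.9, 90.9, 71.5 and 85.9 CPM in Normoxia KO, against 39.3, 43.9, 34.0 and 51.9 CPM in Normoxia Flox. In Hypoxia KO it had 78.7, 73.1, 66.0, 123.0 and 69.2 CPM, against 31.9, 32.2, 27.4 and 39.5 CPM in Hypoxia Flox. Genotypes were separated at both oxygen levels, and Hypoxia KO 4 was the highest library of all. The log2 fold change was 0.87 ± 0.18 in normoxia (adjusted p = 0.00253) and 1.32 ± 0.18 in hypoxia (adjusted p = 0.000103).

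Plxnb1, the receptor of Sema4d, passed in hypoxia, where Hypoxia KO libraries held 55.6, 57.6, 55.7, 57.2 and 64.4 CPM and Hypoxia Flox libraries 36.2, 43.6, 30.1 and 29.8 CPM. The hypoxia libraries did not overlap, and the log2 fold change was 0.73 ± 0.20 (adjusted p = 0.015). The call was lost without Hypoxia Flox 5 (adjusted p = 0.0543) or Hypoxia Flox 4 (adjusted p = 0.0531), and with the Y-linked and Xist score as a covariate (0.66, adjusted p = 0.0791). In normoxia Plxnb1 had 46.4 to 72.4 CPM in Normoxia KO and 29.9 to 69.8 CPM in Normoxia Flox, a log2 fold change of 0.37 ± 0.20 (adjusted p = 0.237). Without the 2 neuron-marker libraries, each of which held the highest Plxnb1 value of its group, this became 0.53 ± 0.15 (adjusted p = 0.0174), and without Normoxia Flox 4 alone it was 0.64 (adjusted p = 0.00848). Sema4c, a membrane semaphorin that binds plexin-B2, had a log2 fold change of 0.78 ± 0.27 in normoxia (adjusted p = 0.0654) and 0.77 ± 0.27 in hypoxia (adjusted p = 0.0558). Its libraries overlapped in both comparisons, and it passed without Normoxia KO 4 in normoxia (0.89, adjusted p = 0.0276) and in hypoxia (0.76, adjusted p = 0.0402). Omitting Normoxia KO 6 (normoxia, 0.87, adjusted p = 0.0481), Hypoxia Flox 2 (hypoxia, 0.95, adjusted p = 0.0345) or Hypoxia KO 1 (hypoxia, 0.85, adjusted p = 0.0381) did the same. Without both neuron-marker libraries Sema4c passed in hypoxia (0.75 ± 0.26, adjusted p = 0.0389) and not in normoxia (0.78 ± 0.29, adjusted p = 0.0742). It also passed with DESeq2 in normoxia (adjusted p = 0.0383) and in hypoxia (adjusted p = 0.0293). Plxnc1, the plexin that binds Sema7a, had a hypoxia value of 0.84 ± 1.48 over all libraries (adjusted p = 0.744) and of 0.83 ± 0.29 without those 2 (adjusted p = 0.0416). In normoxia its value was -1.03 ± 1.08 over all libraries (adjusted p = 0.592) and 0.49 ± 0.35 without them (adjusted p = 0.354). Outside the 2 neuron-marker libraries Plxnc1 reached at most 1.78 CPM.

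Secreted semaphorins went in both directions. Sema3c (ENSMUSG00000028780) had 408.4, 442.0, 297.1, 360.9 and 393.6 CPM in Normoxia KO, against 815.8, 757.7, 858.6 and 527.0 CPM in Normoxia Flox. In hypoxia it had 353.5, 263.8, 344.6, 152.1 and 277.3 CPM in Hypoxia KO, against 476.4, 485.9, 618.0 and 592.2 CPM in Hypoxia Flox. Every KO library was lower than every Flox library at the same oxygen level. Its log2 fold change was -0.96 ± 0.20 in normoxia (adjusted p = 0.00343) and -0.96 ± 0.20 in hypoxia (adjusted p = 0.00307). Plxnd1, the plexin through which Sema3c and Sema3e act on vessels, did not pass in either genotype comparison, at 0.13 ± 0.13 in normoxia and 0.23 ± 0.13 in hypoxia.

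Sema3d, a secreted semaphorin with roles in endothelial and neural crest migration, was higher in KO but low in abundance. Normoxia KO libraries had 6.27, 7.36, 12.1, 15.1 and 16.8 CPM and Normoxia Flox libraries 2.04, 0.937, 0.781 and 6.73 CPM. Hypoxia KO libraries had 6.09, 2.69, 3.83, 1.65 and 5.82 CPM and Hypoxia Flox libraries 1.38, 1.87, 0.644 and 0.343 CPM. The groups overlapped by 1 library at each oxygen level. Its log2 fold changes of 2.12 ± 0.58 (adjusted p = 0.0194) and 1.89 ± 0.65 (adjusted p = 0.0468) were the largest among passing members in each comparison. The normoxia call was lost with the block (1.68 ± 0.56, adjusted p = 0.0816) and without Normoxia Flox 1, 2 or 3 (adjusted p = 0.0542, 0.0666 and 0.0622), and it strengthened to 3.17 ± 0.58 (adjusted p = 0.00124) without the 2 neuron-marker libraries. The hypoxia call was lost on leaving out any of 12 of the 18 libraries, with the highest adjusted p of 0.135 without Hypoxia Flox 5, and it moved to 1.09 with the Y-linked and Xist covariate (adjusted p = 0.34). limma-trend gave Sema3d a hypoxia value of 1.34 (adjusted p = 0.0507), and without a filter on low counts it passed in neither comparison (adjusted p = 0.0503 in normoxia and 0.104 in hypoxia).

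Sema3f, a ligand of neuropilin-2 that repels endothelial cells, passed in hypoxia. It had 53.8, 40.4, 39.9, 70.8 and 39.0 CPM in Hypoxia KO, against 24.9, 26.6, 36.8 and 31.6 CPM in Hypoxia Flox. These libraries did not overlap, and the log2 fold change was 0.70 ± 0.19 (adjusted p = 0.0161), although limma-trend gave 0.52 (adjusted p = 0.0646). In normoxia the value was 0.32 ± 0.19 (adjusted p = 0.30) with overlapping libraries. Among membrane semaphorins, Sema4b passed in normoxia, at -0.82 ± 0.27 (adjusted p = 0.0447), with 2.54 to 4.71 CPM in Normoxia KO and 3.76 to 9.66 CPM in Normoxia Flox. That call was lost without any 1 of 11 libraries (adjusted p up to 0.15, without Normoxia Flox 4), without both neuron-marker libraries (adjusted p = 0.0582), with the block (adjusted p = 0.0514), with limma-trend (adjusted p = 0.0827) and without a filter on low counts (adjusted p = 0.0606).

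In the edgeR fit of the groups over all libraries, the other membrane semaphorins did not pass in any comparison, and 1 of the 13 tested, Sema4b, was called in normoxia. Sema6a, a ligand of plexin-A2 and plexin-A4, had 112.8 to 179.7 CPM in Normoxia KO and 122.0 to 170.8 CPM in Normoxia Flox, and 156.1 to 234.4 CPM in Hypoxia KO and 183.0 to 227.4 CPM in Hypoxia Flox. Its genotype log2 fold changes were 0.10 ± 0.14 in normoxia and -0.05 ± 0.14 in hypoxia, and hypoxia over normoxia gave 0.54 ± 0.15 in Flox (adjusted p = 0.0805). That oxygen value passed without Normoxia KO 4 (0.53, adjusted p = 0.037) and with limma-trend (0.60, adjusted p = 0.0249). It also passed with DESeq2 (0.54, adjusted p = 0.0333) and with an immediate early gene score as covariate (0.61, adjusted p = 0.00268). Sema6b had 43.9 to 67.3 CPM in Hypoxia KO and 61.8 to 86.9 CPM in Hypoxia Flox, with overlapping libraries and a log2 fold change of -0.42 ± 0.21 (adjusted p = 0.165). Without the 2 neuron-marker libraries the Sema6b value in hypoxia was -0.44 ± 0.14 (adjusted p = 0.0309). In normoxia it passed without Normoxia KO 4 alone (-0.50, adjusted p = 0.0404) and not without both of these libraries. Sema5b had -0.32 ± 0.80 in normoxia (adjusted p = 0.829) and 1.40 ± 1.10 in hypoxia (adjusted p = 0.404) over all libraries. Without the same 2 libraries its normoxia value changed sign to 1.43 ± 0.40 (adjusted p = 0.02), and its hypoxia value was 1.38 ± 0.37 (adjusted p = 0.011). Outside those 2 libraries Sema5b reached at most 2.12 CPM. Unc50, a Golgi protein that only shares letters with the netrin receptors, had 26.1 to 36.7 CPM over all libraries, with genotype values of -0.07 ± 0.12 in normoxia and -0.06 ± 0.12 in hypoxia.

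Netrins differed by member. Ntn3 (ENSMUSG00000117406), a secreted netrin, had 12.5, 11, 20.5, 10.9 and 17.3 CPM in Normoxia KO, against 5.11, 4.55, 6.03 and 8.07 CPM in Normoxia Flox. In hypoxia it had 15.6, 12.2, 11.7, 15.6 and 10.6 CPM in Hypoxia KO, against 6.08, 6.71, 6.04 and 8.08 CPM in Hypoxia Flox. Genotypes did not overlap at either oxygen level. KO over Flox gave a log2 fold change of 1.28 ± 0.21 in normoxia (adjusted p = 0.000533) and 0.97 ± 0.21 in hypoxia (adjusted p = 0.00433). At 2.02 RPKM Ntn3 was nevertheless much less abundant than Ntn4 (15.2 RPKM) and Ntn1 (13.3 RPKM).

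Ntng2, a netrin-G held in the membrane by a lipid anchor, was lower in KO. Its CPM was 10.5, 8.97, 11.3, 10.1 and 9.67 in Normoxia KO, against 14.4, 12.1, 16.7 and 13.8 in Normoxia Flox. In hypoxia it was 12.0, 14.9, 12.0, 7.90 and 10.7 in Hypoxia KO, against 16.2, 17.4, 20.4 and 18.1 in Hypoxia Flox. Libraries of the genotypes were separate in both comparisons. On the log2 scale the change was -0.50 ± 0.14 in normoxia (adjusted p = 0.0245) and -0.65 ± 0.14 in hypoxia (adjusted p = 0.00402). The normoxia call was lost with the block (-0.39 ± 0.18, adjusted p = 0.205) and on leaving out Normoxia Flox 3 or Normoxia KO 2 (adjusted p = 0.0732 and 0.0566), or all 3 libraries mixing Xist and Y-linked reads (adjusted p = 0.0855). Ntn4, a laminin-related netrin of basement membranes, did not pass, with log2 fold changes of -0.36 ± 0.22 in normoxia and 0.29 ± 0.22 in hypoxia.

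**Figure D3:**
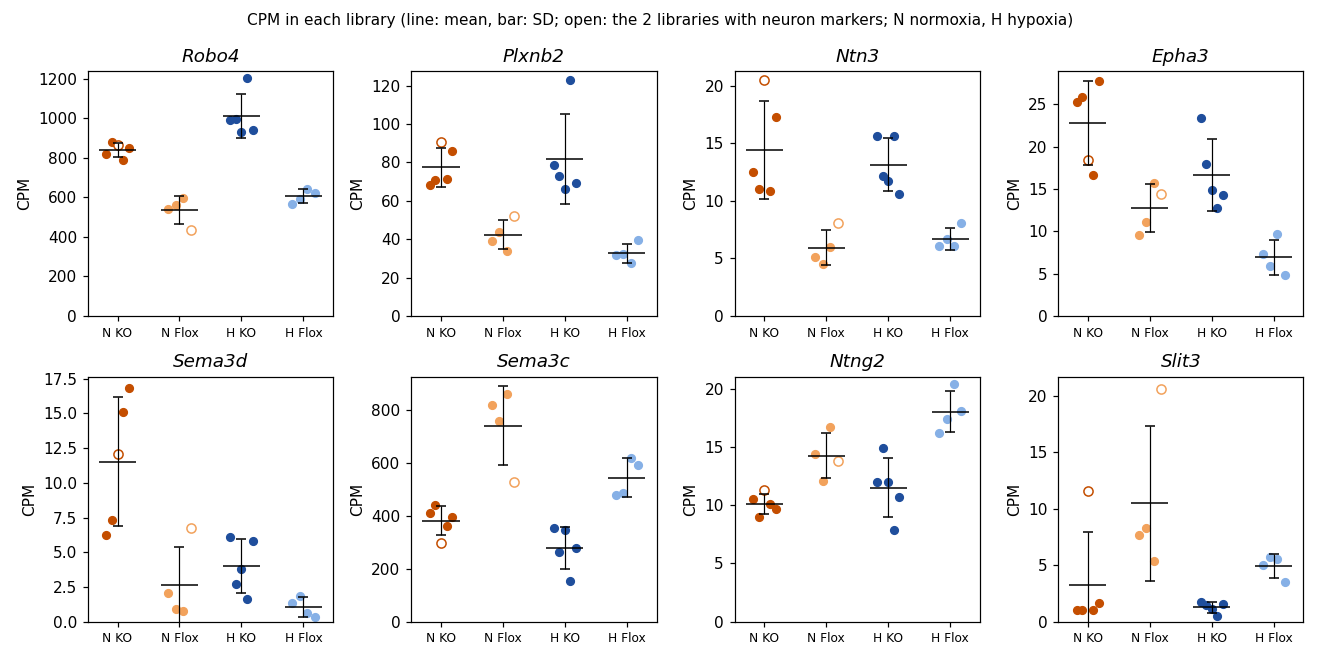
CPM of 8 members in each library, by group, with the group mean (line) and SD (bar). Open circles are Normoxia KO 4 and Normoxia Flox 4, the libraries with neuron markers. For Robo4, Plxnb2, Ntn3, Epha3, Ntng2 and Sema3c the KO and Flox points do not overlap at either oxygen level, and for Slit3 in normoxia only the open KO point lies among the Flox points.

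Ephrin-A ligands included 1 member that passed in each direction in normoxia. Efna1 (ENSMUSG00000027954) had 35.0, 43.1, 36.4, 37.7 and 30.9 CPM in Normoxia KO, against 67.3, 78.6, 81.1 and 45.4 CPM in Normoxia Flox. No KO library reached the lowest Flox library, and the log2 fold change was -0.90 ± 0.17 (adjusted p = 0.00128). In hypoxia Efna1 had 27.2 to 44.1 CPM in Hypoxia KO and 42.0 to 58.8 CPM in Hypoxia Flox, a log2 fold change of -0.48 ± 0.17 (adjusted p = 0.0511). It passed there without the 2 neuron-marker libraries (-0.49 ± 0.14, adjusted p = 0.014) and on leaving out Normoxia Flox 4 alone, Hypoxia Flox 4 or Hypoxia KO 3 (adjusted p = 0.0184, 0.0388 and 0.0479). Efna4 was higher in Normoxia KO, at 3.11 to 5.36 CPM against 1.22 to 2.25 CPM in Normoxia Flox, with a log2 fold change of 1.25 ± 0.28 (adjusted p = 0.00548). That call was lost with the block (1.14 ± 0.35, adjusted p = 0.0622) and when the 3 libraries that mix Xist with Y-linked reads were omitted (1.08, adjusted p = 0.0698).

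Efna5 and Efna3 passed once the neuron-marker libraries were left out. Efna5 had 0.485 to 1.72 CPM in Hypoxia KO against 1.80 to 3.38 CPM in Hypoxia Flox. Without those 2 libraries its log2 fold change was -1.41 ± 0.30 in normoxia (adjusted p = 0.00318) and -1.45 ± 0.31 in hypoxia (adjusted p = 0.00245), and with all libraries it was -1.25 (adjusted p = 0.0581) and -1.44 (adjusted p = 0.0569). Efna3 had a log2 fold change of 1.75 ± 0.36 in normoxia under this exclusion (adjusted p = 0.00249) and of 0.75 ± 0.31 in hypoxia (adjusted p = 0.0788). Over all libraries Efna3 had 0.53 ± 0.57 in normoxia (adjusted p = 0.60) and 0.76 ± 0.62 in hypoxia (adjusted p = 0.422). Ephrin-B members Efnb1 and Efnb3 did not pass in either genotype comparison.

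The Eph receptors that passed were Epha3, Epha4 and Epha2, each higher in KO. Epha3, a receptor for ephrin-A ligands, had 25.3, 25.8, 18.4, 16.6 and 27.8 CPM in Normoxia KO, against 9.60, 11.1, 15.7 and 14.4 CPM in Normoxia Flox. In hypoxia it had 23.4, 18, 14.9, 12.7 and 14.3 CPM in Hypoxia KO, against 7.33, 5.93, 9.66 and 4.80 CPM in Hypoxia Flox. Genotypes were separate at both oxygen levels. The resulting log2 fold change was 0.84 ± 0.23 in normoxia (adjusted p = 0.0176) and 1.27 ± 0.23 in hypoxia (adjusted p = 0.00123). The normoxia call was lost without Normoxia Flox 1 (adjusted p = 0.0657) or Normoxia Flox 2 (adjusted p = 0.0652), and with limma-trend (0.72, adjusted p = 0.0523).

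Epha4, which binds ephrins of both classes, passed in normoxia, at 201.8 to 245.2 CPM in Normoxia KO against 126.5 to 194.4 CPM in Normoxia Flox. Its log2 fold change was 0.45 ± 0.14 (adjusted p = 0.0336), and in hypoxia it was -0.08 ± 0.14 with overlapping libraries. The normoxia call was lost with the block (0.31 ± 0.16, adjusted p = 0.275), with RLE scaling (adjusted p = 0.0503) and without any 1 of 8 libraries (adjusted p up to 0.156, without Normoxia Flox 3). It was also lost with limma-trend (adjusted p = 0.054), without a filter on low counts (adjusted p = 0.0671), with only the 2 groups in the fit (adjusted p = 0.0507) and without the 3 libraries mixing Xist and Y-linked reads (adjusted p = 0.0986). The test of the difference between the comparisons did not pass for Epha4. Epha7 was at 1.26 to 2.69 CPM in Hypoxia KO against 3.96 to 4.56 CPM in Hypoxia Flox, with no overlap. Over all libraries Epha7 did not pass, at -1.22 ± 0.83 in normoxia (adjusted p = 0.367) and -1.05 ± 0.92 in hypoxia (adjusted p = 0.459). Without the 2 neuron-marker libraries it had log2 fold changes of -1.38 ± 0.23 in normoxia (adjusted p = 0.000491) and -1.07 ± 0.20 in hypoxia (adjusted p = 0.001).

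Epha2, the receptor of Efna1, varied widely within each group. It had 353.3, 344.2, 110.3, 338.4 and 115.4 CPM in Normoxia KO, against 181.2, 96.3, 44.9 and 74.4 CPM in Normoxia Flox. In hypoxia it had 173.7, 464.1, 439.6, 446.0 and 440.2 CPM in Hypoxia KO, against 262.9, 145.2, 75.9 and 70.8 CPM in Hypoxia Flox. The genotypes overlapped in both comparisons, and the high and low libraries of each group were also those with high and low immediate early genes. Immediate early genes such as Fos are switched on within minutes of stimulation or of tissue dissociation. They summed to 3904.8 to 35350.8 CPM in Normoxia KO and 2236.5 to 29416.4 CPM in Normoxia Flox, and to 3745.5 to 33427.3 CPM in Hypoxia KO and 2258.2 to 22432.0 CPM in Hypoxia Flox. Epha2 passed in hypoxia at 1.5 ± 0.52 (adjusted p = 0.0486) and not in normoxia at 1.35 ± 0.52 (adjusted p = 0.0901). Once the immediate early score entered the fit, the values were 0.87 ± 0.07 in normoxia (adjusted p = 3.28e-07) and 0.69 ± 0.07 in hypoxia (adjusted p = 1.01e-05). The same fit called Epha2 higher in hypoxia than in normoxia, at 0.71 ± 0.07 in Flox (adjusted p = 1.43e-05) and 0.53 ± 0.06 in KO (adjusted p = 0.000538), where the fit without the score gave 0.48 ± 0.53 in Flox (adjusted p = 0.738) and 0.64 ± 0.47 in KO (adjusted p = 0.571). Without the covariate, the hypoxia genotype call was lost on leaving out any 1 of 12 libraries (adjusted p up to 0.147, without Hypoxia Flox 5), with RLE scaling (adjusted p = 0.0518) and without a filter on low counts (adjusted p = 0.113), and Epha2 passed in normoxia at 1.79 without Normoxia Flox 1 (adjusted p = 0.0443) and at 1.52 without Normoxia KO 4 (adjusted p = 0.0476).

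The remaining calls in normoxia concerned Plxna2 and an antisense transcript. Plxna2, a receptor of class 6 semaphorins, had 252.0 to 439.0 CPM in Normoxia KO and 405.9 to 716.9 CPM in Normoxia Flox, a log2 fold change of -0.56 ± 0.19 (adjusted p = 0.0472). In hypoxia the value was 0.30 ± 0.19, and the call in normoxia was lost without any 1 of 10 libraries (-0.38, adjusted p = 0.183, without Normoxia Flox 3) and with the block (-0.38 ± 0.21, adjusted p = 0.286). It was also lost without the 2 neuron-marker libraries (-0.53 ± 0.20, adjusted p = 0.0711), and omitting the 3 libraries that mix Xist with Y-linked reads brought Plxna2 to -0.23 (adjusted p = 0.447). The immediate early covariate (adjusted p = 0.059), no filter on low counts (adjusted p = 0.0807) and only the 2 groups in the fit (adjusted p = 0.117) ended it too. Plxna4os1, antisense to Plxna4, had about 1 CPM and a log2 fold change of 0.91 ± 0.29 (adjusted p = 0.0448). Its call was lost without any 1 of 15 libraries (0.60, adjusted p = 0.0971, without Normoxia Flox 1), with the block (1.22 ± 0.38, adjusted p = 0.065) and without the 2 neuron-marker libraries (0.91 ± 0.36, adjusted p = 0.0838). Other fits that lost the Plxna4os1 call were those with limma-trend (adjusted p = 0.0607), with the Y-linked and Xist covariate (adjusted p = 0.0532), without a filter (adjusted p = 0.101) and with only the 2 groups (adjusted p = 0.157). The kit marks strand but the strand setting of the counting is not given in the sources used here, so Plxna4os1 and Plxna4 may share reads. Plxna4 itself had -0.46 ± 0.20 in normoxia over all libraries (adjusted p = 0.136) and passed without the neuron-marker libraries (-0.35 ± 0.10, adjusted p = 0.0202).

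Hypoxia was compared with normoxia within each genotype to see which guidance genes follow 7 days of low oxygen. In Flox, the edgeR test called 0 of 60 members, against 2.81% of all genes. At an unadjusted p under 0.05 there were 25 members, 3 higher and 22 lower in Hypoxia Flox, which is 41.7% of the tested members against 17.8% of all genes. Without the 2 neuron-marker libraries there were 15, 4 higher and 11 lower, or 25.4% against 14.4% of all genes. DESeq2 called 2 members higher and 6 lower among 814 genes called in all, and limma-trend on RPKM called 1 higher and 0 lower among 498. The members' median log2 fold change of -0.71, beside -0.03 for all genes, became -0.04 without the neuron-marker libraries, both of which are normoxia libraries. Libraries did not overlap for 2 members that were higher in Hypoxia Flox, Plxnd1 and Sema6a (5.36% of all genes), and for 3 that were lower, Efna5, Plxna2 and Sema3f (3.15%). Sema3f stayed uncalled in 24 of 29 alternative fits. Among the fits that called it lower were DESeq2 (-0.70, adjusted p = 0.0219) and the immediate early covariate (-0.77, adjusted p = 0.00814).

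In KO, 2 of 60 members passed, against 1.48% of all genes. Plxnd1 was higher in Hypoxia KO (0.713% of all genes were higher) and Ntn1 was lower (0.77% were lower). Plxnd1 had 680.4, 725.5, 602.7, 555.3 and 697.2 CPM in Hypoxia KO, against 439.8, 412.0, 465.6, 398.0 and 492.6 CPM in Normoxia KO. It had 539.8, 570.9, 604.0 and 502.3 CPM in Hypoxia Flox, against 334.0, 489.9, 468.8 and 322.3 CPM in Normoxia Flox. The hypoxia libraries lay above the normoxia libraries in both genotypes. The log2 fold change was 0.56 ± 0.12 in KO (adjusted p = 0.0273) and 0.46 ± 0.13 in Flox (adjusted p = 0.085). The Flox value passed without Normoxia Flox 2 (0.56, adjusted p = 0.0402). The KO call was lost without Hypoxia KO 2 (adjusted p = 0.096), Hypoxia KO 5 (0.0717), Normoxia KO 5 (0.0687), Normoxia KO 1 (0.0584) or Normoxia KO 2 (0.0571), and with limma-trend (0.54, adjusted p = 0.0814).

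Ntn1, the best-known netrin and a ligand of Dcc and Unc5 receptors, had 74.5, 44.6, 52.5, 36.1 and 51.5 CPM in Hypoxia KO, against 80.0, 80.6, 115.2, 97.2 and 132.9 CPM in Normoxia KO. In Flox it had 66.6, 71.7, 87.0 and 80.2 CPM in Hypoxia Flox, against 118.2, 110.2, 114.6 and 84.3 CPM in Normoxia Flox. The KO libraries did not overlap between oxygen levels, and in Flox they overlapped by 1 library. The log2 fold change of hypoxia over normoxia was -0.97 ± 0.18 in KO (adjusted p = 0.0148) and -0.48 ± 0.20 in Flox (adjusted p = 0.226). Only the omission of Hypoxia KO 2 among the 18 libraries ended the KO call (adjusted p = 0.0622), and so did fitting only the KO groups (-0.96, adjusted p = 0.0698). In the genotype comparison Ntn1 was lower in Hypoxia KO than in Hypoxia Flox, at -0.56 ± 0.19 (adjusted p = 0.0421), and was -0.08 ± 0.19 in normoxia. This genotype call was lost without any 1 of 9 libraries (adjusted p up to 0.125, without Hypoxia Flox 4), with the immediate early covariate (-0.36, adjusted p = 0.131) and without a filter on low counts (adjusted p = 0.0743). The comparisons share the Hypoxia KO libraries.

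Libraries of the KO groups did not overlap between oxygen levels for 2 members that were higher in Hypoxia KO, Plxnd1 and Robo4 (1.69% of all genes), and for 5 that were lower, Efnb1, Epha4, Ntn1, Sema3d and Sema7a (2.14%). Of these 7 members, Plxnd1 and Ntn1 passed the test.

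The interaction test asks whether the genotype difference itself changes with oxygen. It called 0 of 60 members with edgeR, against 0.445% of all genes, and 0 with DESeq2 and with limma-trend. At an unadjusted p under 0.05 there were 3 members, Epha4, Plxna2 and Sema4b, each of which had passed in the normoxia genotype comparison alone. These are 5.0% of the tested members, beside 5.48% of all genes. Without the 2 neuron-marker libraries there were 7 of 59 members, 5 higher and 2 lower, or 11.9% against 6.6% of all genes. At the adjusted threshold that fit also called 0 members. Members that passed at only 1 oxygen level were therefore not shown to differ between oxygen levels.

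Many guidance genes were highest in the 2 libraries with neuron markers. For 35 of the 68 members, the 2 highest libraries were Normoxia KO 4 and Normoxia Flox 4, and 29 of these were tested, which is 48.3% of the tested members and compares with 14.4% of all tested genes. In 15 members both libraries lay at least 5-fold above the highest of the other 16. The receptor Robo2 had 38.6 CPM in Normoxia KO 4 and 75.8 CPM in Normoxia Flox 4, against at most 1.04 CPM elsewhere. Epha5, an Eph receptor of forebrain neurons, had 31.1 and 57.1 CPM there, against at most 0.922 CPM elsewhere. Slit1 had 19.4 and 33.6 CPM, against at most 0.969 CPM in the other libraries. The plexin-D1 ligand Sema3e belonged to the same group, at 16.9 and 30.6 CPM against at most 1.35 CPM. All 3 Unc5 receptors among the members, Unc5a, Unc5c and Unc5d, had their highest values in these libraries. Outside them, Epha6 had reads in only 2 libraries, Hypoxia Flox 2 and Hypoxia Flox 5, and stayed at or below 0.098 CPM.

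**Figure D4:**
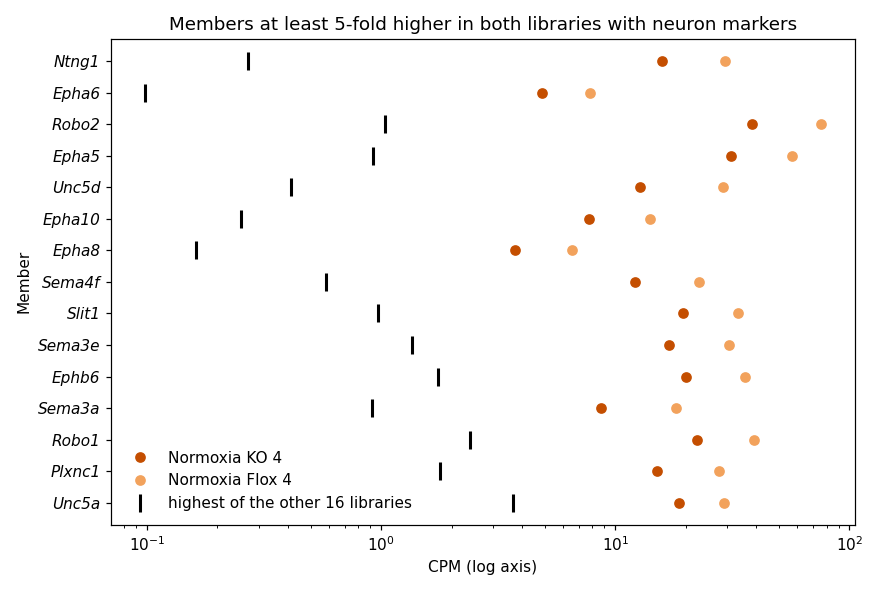
CPM (log axis) of the 15 members that were at least 5-fold higher in both Normoxia KO 4 (dark circles) and Normoxia Flox 4 (light circles) than in the highest of the other 16 libraries (black ticks). Normoxia Flox 4 lies above Normoxia KO 4 for every member shown, as it does in the neuron marker sum.

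A second set of members varied with Mog and Olig2, markers of oligodendrocytes. Efnb3, Ephb1, Plxnb3, Sema4d, Sema6c and Unc5c had their 5 lowest values in the same libraries, Normoxia KO 6, Normoxia Flox 3, Hypoxia KO 1, Hypoxia Flox 4 and Hypoxia Flox 5. These are also the 5 lowest libraries for Mog, a myelin protein gene (1.34 to 7.43 CPM, against 14.6 to 114.7 CPM in the other 13), and for Olig2, an oligodendrocyte lineage factor. The pattern was chosen after its values were seen, and it holds for 10% of the tested members and 2.1% of all tested genes. Sema4d, the ligand of Plxnb1, ran from 0.738 to 3.77 CPM in the 5 libraries and from 4.78 to 51.8 CPM in the others. Plxnb3 ran from 0.564 to 3.45 CPM and from 8.25 to 44.2 CPM, and Efnb3, a transmembrane ephrin, from 2.65 to 8.08 CPM and from 16.3 to 111.5 CPM. Each of the 4 groups holds 1 or 2 of the low libraries, and Sema4d varied 70.2-fold within Normoxia Flox and Unc5c 116-fold. The highest value of both is that of Normoxia Flox 4, a neuron-marker library, and without it Sema4d ran from 0.738 to 15.4 CPM and Unc5c from 0.174 to 2.51 CPM in that group. The 5 libraries also had low immediate early sums, 2236.5 to 5015.7 CPM, against 3904.8 to 35350.8 CPM in the other 13. Of 14 oligodendrocyte markers, 9 had their lowest values in these 5 libraries, none was at 0 in any library, and the markers summed to 1130.1 to 2947.6 CPM there and to 1517.0 to 6391.5 CPM in the others. The part of oligodendrocyte RNA in these members' values was not tested.

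**Figure D5:**
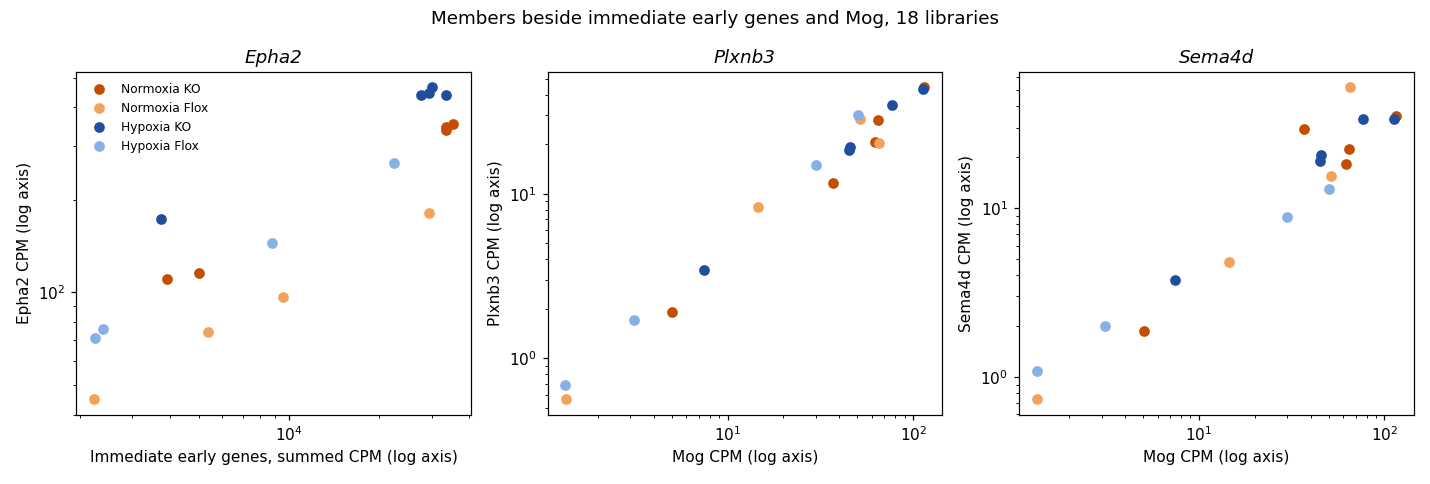
Each point is 1 of 18 libraries, coloured by group, on log axes in CPM. Left, Epha2 against the summed immediate early genes. Centre and right, Plxnb3 and Sema4d against the oligodendrocyte gene Mog. The 5 libraries lowest in Mog are also lowest in Plxnb3 and Sema4d, and KO points lie above Flox points of a similar immediate early sum in the Epha2 panel.

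Downstream and partner genes of the guidance receptors were drawn from a list of 65 genes, of which 63 were tested. In normoxia 13 were higher and 8 lower in KO, beside 9.54% and 7.03% of all genes, and in hypoxia 15 were higher and 6 lower, beside 11.4% and 11% of all genes. The kinase Fyn, which relays plexin and netrin signals, had a log2 fold change of 0.61 ± 0.07 in normoxia (adjusted p = 2.95e-05) and 0.73 ± 0.07 in hypoxia (adjusted p = 7.3e-06). The GTPase Rhoa had 0.49 ± 0.07 in normoxia and 0.47 ± 0.07 in hypoxia. Unc5b, the endothelial Unc5 receptor, fell by 1.08 ± 0.15 in normoxia and by 1.00 ± 0.15 in hypoxia on the log2 scale. The arterial gene Efnb2 fell by 1.77 ± 0.26 in normoxia and by 1.42 ± 0.26 in hypoxia, and the arterial gene Sema3g fell by 1.26 ± 0.21 and by 1.48 ± 0.21. Enah, an actin regulator, had -0.77 ± 0.12 in normoxia and -0.65 ± 0.12 in hypoxia. Flrt2, a ligand of Unc5 receptors, had -1.02 ± 0.19 in hypoxia. The highest edgeR adjusted p among these values was 0.00116. Between oxygen levels, 2 partners were higher and 2 lower in each genotype. Sema3g was lower in hypoxia by 0.89 ± 0.22 in Flox and by 1.11 ± 0.20 in KO, Enah was lower by 0.63 ± 0.13 and 0.51 ± 0.11, and the latrophilin Adgrl2 was higher by 0.61 ± 0.12 and 0.47 ± 0.11. Srgap1 was also higher in Hypoxia Flox (0.58 ± 0.15) and Adgrl3 in Hypoxia KO (0.98 ± 0.22), and the highest adjusted p among these was 0.0425. The interaction test called 0 of the 63 partners with edgeR, and 1 had an unadjusted p under 0.05.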

How the data were processed

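RNA from isolated brain endothelial cells was measured by stranded mRNA sequencing in 18 libraries. The authors deposited raw read counts per Ensembl gene and RPKM, and the submitters' processing notes name HISAT2, edgeR and GRCm39. How reads were assigned by strand is not given in the sources used here. The deposited RPKM were used for levels between genes and for 1 alternative, limma-trend on log2(RPKM + 0.1). Symbols came from GENCODE M21 annotation and matched 91.3% of gene IDs, and 0.723% of counts lay on IDs without a symbol.

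Counts were tested with edgeR 4.0.16 (filterByExpr, TMM, robust quasi-likelihood F test, R 4.3.3) in 1 group-means model over all 18 libraries, with Benjamini-Hochberg adjustment over 17531 genes and a threshold of 0.05. The SE of a log2 fold change is its size divided by the square root of F. DESeq2 1.42.0, limma 3.58.1, other scalings, filters, covariates and omitted libraries were alternatives. Simulated data were used for the main edgeR fit alone, and they held no libraries like the 2 with neuron markers. The labels do not say that libraries of a group came from separate animals, so p-values measure the spread between these libraries. Labels give replicate numbers shared between groups. Deviations from the group means of same-numbered libraries correlated at 0.671, 0.166 and 0.786 for normoxia pairs 1, 2 and 4. In hypoxia they correlated at 0.329, 0.043, -0.246 and -0.485. Libraries with different numbers reached similar values, at 0.646 for Normoxia Flox 1 with Normoxia KO 2 and 0.781 for Normoxia Flox 3 with Normoxia KO 6. Pair 4 holds the neuron-marker libraries. The numbers were therefore not shown to pair libraries, and the block over the normoxia pairs is an alternative only.

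Named members were, per comparison and direction, the up to 8 passing members with the smallest adjusted p, the 12 with the highest RPKM, and 8 with known roles in vessels. Other members named singly were chosen after their values were seen. The members, the lists and the partners were chosen with earlier results of these data known.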

Additional observations from a re-analysis of the deposited data

Results flagged for a closer look

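Members were looked at for single libraries far from the rest of their group, in 108 sets of 4 or 5 libraries. With so many sets some would stand apart by chance, at a rate that was not measured. In Hypoxia KO 4, Robo4 stood at 1200.9 CPM against 927.3 to 997.8 CPM in the other 4 Hypoxia KO libraries, Plxnb2 at 123.0 CPM against 66.0 to 78.7 CPM, Plxna2 at 560.4 CPM against 379.4 to 419.4 CPM, and Efna4 at 2.04 CPM against 3.55 to 4.04 CPM. Epha2 stood at 173.7 CPM in Hypoxia KO 1 against 439.6 to 464.1 CPM in the rest of that group. Plxnb1 stood at 64.4 CPM in Hypoxia KO 5 against 55.6 to 57.6 CPM. In Hypoxia Flox, Ntn4 was at 25.2 CPM in Hypoxia Flox 5 against 48.7 to 52.1 CPM, and Sema7a was at 1403.1 CPM in Hypoxia Flox 4 against 969.7 to 1013.4 CPM.

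The neuron-marker libraries gave the other 3 values that stood apart. Robo1 was at 22.3 CPM in Normoxia KO 4 against 1.12 to 2.12 CPM in the other Normoxia KO libraries, and at 39.3 CPM in Normoxia Flox 4 against 0.937 to 1.22 CPM in the other Normoxia Flox libraries. Slit3 was at 11.6 CPM in Normoxia KO 4 against 1.02 to 1.62 CPM.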

How the results depend on the processing

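Of 3910 values of 27 named members under the alternatives, 0 changed sign together with a call. Low counts limit Sema3d, Sema4b, Sema5b, Plxnc1, Epha7, Efna4, Efna5, Slit3 and Plxna4os1, and 4 or 5 libraries a group limit all calls. Sex, with Y-linked reads in all 4 Hypoxia Flox libraries and in 1 of 5 Hypoxia KO libraries, cannot be fully told apart from genotype in hypoxia. It was also uneven between oxygen levels within each genotype, so the oxygen comparisons share this limit. Counts below are of genes called, and the cause of each shift was not tested.

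Leaving out single libraries gave, in the normoxia genotype comparison, 2085 to 3645 genes, 4 to 11 members higher and 3 to 16 lower. The 16 came without Normoxia KO 4, with the neuron-marker library Normoxia Flox 4 kept. The hypoxia genotype comparison gave 2664 to 4499 genes, 5 to 9 members higher and 2 to 6 lower. Hypoxia against normoxia gave 332 to 619 genes in Flox, with 0 to 1 members higher and 0 to 1 lower, and 53 to 523 genes in KO, with 0 to 2 higher and 0 to 2 lower. The interaction gave 28 to 98 genes and 0 members.

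DESeq2 called 6 members lower in Hypoxia KO than Hypoxia Flox, 814 genes with oxygen in Flox (members 2 higher, 6 lower), 607 with oxygen in KO (3 higher, 3 lower) and 143 in the interaction. The immediate early covariate gave 964 genes with oxygen in Flox and 543 in KO, each with 3 members higher and 3 lower. limma-trend gave 5 higher in Normoxia KO, 6 lower in Hypoxia KO, 1 higher with oxygen in Flox and 0 in KO. Fitting only the 2 groups compared gave 5 higher and 3 lower in Normoxia KO, 8 lower in Hypoxia KO, 1 lower with oxygen in Flox, and 107 genes with 0 members lower with oxygen in KO. Without a filter, 5 were higher and 3 lower in Normoxia KO, and with at least 1 CPM in 4 libraries 5 were lower in Hypoxia KO. The covariate of Y-linked minus Xist reads gave 1 member higher with oxygen in Flox and 2 lower in KO. Shares of all genes called in each direction were not counted for the fits above, so their member counts have no background beside them. Without the 2 neuron-marker libraries, as without the 3 with Xist and Y-linked reads, 8 were lower in Hypoxia KO. The exclusion of 3 libraries and the block over the normoxia pairs were chosen after seeing the data.

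The replicate block over all groups gave 1793 genes in the normoxia genotype comparison (5 members higher, 2 lower), 6 members lower in Hypoxia KO, 1 lower with oxygen in Flox, 43 genes and 0 members with oxygen in KO, and 3 genes in the interaction. Under it the normoxia genotype calls ended for Epha3 (0.83, adjusted p = 0.0554), Ntng2 (-0.44, adjusted p = 0.156) and Epha4 (0.45, adjusted p = 0.117). They also ended for Plxna2 (-0.52, adjusted p = 0.202), Sema4b (-0.66, adjusted p = 0.184) and Plxna4os1 (0.94, adjusted p = 0.129). With oxygen in KO the calls ended for Ntn1 (-0.88, adjusted p = 0.0942) and Plxnd1 (0.58, adjusted p = 0.119), and Sema3d passed in neither genotype comparison. The block over the normoxia pairs gave 1812 genes and 4 members higher there. Replicate numbers were not shown to pair libraries at either oxygen level.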
